A study of Mus musculus with 6 samples.

Results

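The genes of the cytosolic ribosomal proteins were followed through RNA-seq of calf muscle from aged mice. Members were the protein-coding genes whose symbol begins with Rpl or Rps and a digit, together with Rpsa, Rplp0, Rplp1 and Rplp2. Of 98 such genes, 10 kinases of the Rps6k family, 3 copies with -ps in their name and 1 gene with a mean under 1 (Rpl39l, 0.924) were left out, so that 84 of the 26294 genes in the table remained. They comprise 31 proteins of the small subunit and 46 of the large subunit, called core members here, 6 paralogues (Rpl3l, Rpl7l1, Rpl22l1, Rpl36al, Rps27l and Rps27rt) and Rps19bp1, a binding protein of Rps19 that the name rule also catches. All 84 were among the 20311 genes whose mean reached 1, over which genes are counted below.

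All animals were male C57BL/6 mice aged 24 to 26 months. They received a high-fat diet with 0.1% Nobiletin, a citrus flavonoid (HF.NOB), a high-fat diet alone (HF) or a regular diet (RD), and muscle was taken at ZT18, in the dark phase, or at ZT6, in the light phase. The treatment lasted 5 to 6 months, and RD received no drug. Each of the 6 conditions has 1 library, and how it relates to the biologically independent samples of which the study speaks is not stated, so differences between conditions are ratios of single libraries without a test unless a fit is named. Values are normalised read counts, which the authors had scaled between libraries before deposit, and log2 folds are of these values after adding 1.

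The cytosolic ribosome is built from a small subunit, which reads the mRNA, and a large subunit, which joins amino acids into protein. Its proteins are needed in nearly equal numbers, and their mRNAs are known as TOP mRNAs, since they begin with a C followed by a tract of pyrimidines, through which the mTORC1 kinase controls their translation. In skeletal muscle the ribosome content is known to set much of the capacity to make protein, and muscle fibres carry their own variant of 1 large-subunit protein, Rpl3l, partly in place of Rpl3.

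The start sites are shown because the TOP tract is the feature that ties these genes together. RefSeq starts on GRCm38.p6 were found for 64 of the 84 members. A run of C followed by at least 4 C or T bases, with its first base at most 10 bases from the annotated start on either side and on the strand of the gene, was present in 37 of these 64 members (57.8%), against 34.8% of 12048 other protein-coding genes. Each line gives 30 bases, 15 on either side of the start, with the run in capitals. The first 5 lines are core members of both subunits picked among those with a run. The last 3 are among the members whose folds stood apart below.
Rplp2: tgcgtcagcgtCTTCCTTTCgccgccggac
Rps6: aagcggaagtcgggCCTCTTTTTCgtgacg
Rps18: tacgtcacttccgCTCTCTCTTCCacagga
Rps27: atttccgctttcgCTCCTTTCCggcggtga
Rpl35: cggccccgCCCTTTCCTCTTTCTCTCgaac
Rpl3l: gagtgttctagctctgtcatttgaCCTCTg
Rpl7l1: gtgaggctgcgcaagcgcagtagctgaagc
Rps19bp1: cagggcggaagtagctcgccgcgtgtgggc
The windows are chr7:141447636-141447665 on the plus strand for Rplp2, chr4:86857353-86857382 on the minus strand for Rps6, chr17:33955651-33955680 on the minus strand for Rps18 and chr3:90213634-90213663 on the minus strand for Rps27. That of Rpl35 is chr2:39005117-39005146 on the minus strand, that of Rpl3l chr17:24727811-24727840 on the plus strand, that of Rpl7l1 chr17:46782642-46782671 on the minus strand and that of Rps19bp1 chr15:80264292-80264321 on the minus strand. The runs of the first 5 are 9 to 18 bases long. Rpl3l has a run of 5 bases that begins 9 bases after the start, and no such run lies in the windows of Rpl7l1 and Rps19bp1. Core members without a run include Rpl24, Rps28, Rplp0, Rpl4, Rpl5 and Rpsa, so the lines shown do not stand for all members. Whether the run goes with the folds was not tested. The hexamer CGGAAG, the core of many sites for ETS-family factors, lay on either strand within 250 bases before to 50 bases after the start in 43 of the 64 members (67.2%) and in 30.5% of the other genes. Both are matches of letters and not measured sites.

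The libraries held 23248663 to 31837501 reads on genes, of which 290952 to 509035 fell on members. Genes of skeletal muscle (10 markers, among them Ckm and Acta1) took 14.4 to 17.1% of all values in every library, as the label of the tissue states. One library stood apart: in HF.NOB at ZT6, folds of other protein-coding genes against HF followed transcript length, with a median log2 fold of 0.82 for transcripts of 500 to 1000 bases and -0.84 for those of 8000 bases or more. In HF at ZT18, liver transcripts summed to 1901 normalised counts, against 172 to 343 in the other libraries. The 126 copies with -ps in their name summed to 0.575 to 0.625% of the member values. Copies under other names were not summed, and reads that match both a member and a copy were not measured. Strand use in counting is not given in the sources used here. By gene span, 24 members overlap a gene on the opposite strand, whose reads cannot be told apart from theirs if strand was not used. Another gene on the same strand overlaps 35 members, Rpl3 among them, and there strand cannot separate the reads.

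The members were abundant and short. Their mean value over the 6 libraries ranged between 134.6 and 19770 normalised counts with a median of 4318, and their longest annotated transcript had a median of 925.5 bases, against 3274 bases for other protein-coding genes. Per kilobase of principal transcript, the highest levels were those of the stalk proteins Rplp1 (19191 normalised counts per kb) and Rplp0 (14555), which recruit elongation factors, and of Rpl4 (12597), which lines the exit tunnel for the new protein. The lowest were Rps19bp1 (206.9), Rps27rt (360.0) and Rpl7l1 (644.3), none of them a core protein. Among core members the lowest was Rpl3 (1537), which lies at the peptidyl transferase centre and whose place in muscle Rpl3l can take. The core members thus spread over a range of levels per kb, with a median of 6151.

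Members took 1.12% of all values in HF.NOB, 1.15% in HF and 1.34% in RD at ZT18. At ZT6 they took 2.19% in HF.NOB, 1.16% in HF and 1.30% in RD. The median of each member's log2 distance from its own mean was -0.26, -0.31 and -0.02 in HF.NOB, HF and RD at ZT18, and 0.78, -0.23 and 0.02 at ZT6. The medians stood at 3 levels: the HF library at each time and HF.NOB at ZT18 lay low, both RD libraries in between, and HF.NOB at ZT6 high. All 84 members had their highest value in HF.NOB at ZT6, which holds for 32.5% of all genes. In bulk tissue, fewer cells of a type and less RNA per cell cannot be told apart.

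**Figure D1:**
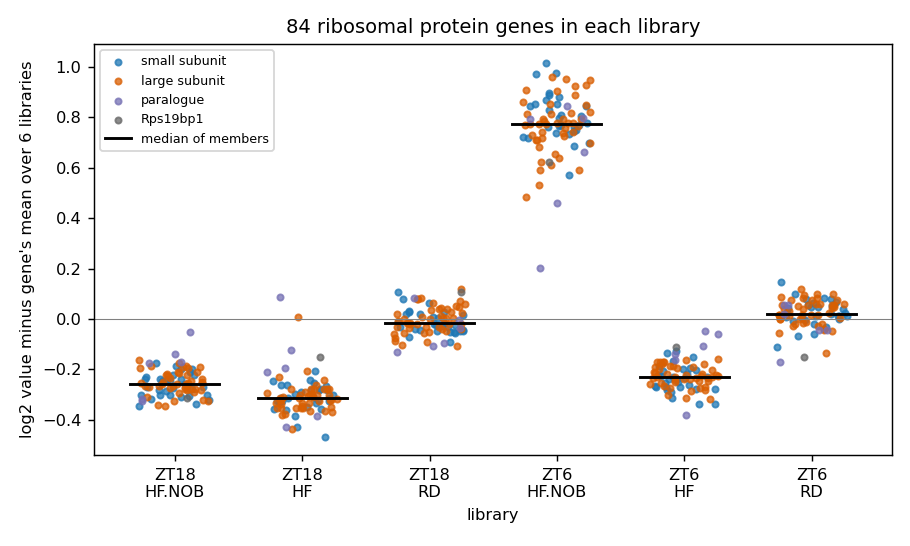
Each point is 1 of 84 members, and the vertical axis gives its log2 value minus its mean over the 6 libraries on the horizontal axis, with a black line at the median. The medians are 0.78 in HF.NOB at ZT6, -0.02 and 0.02 in the RD libraries at ZT18 and ZT6, and between -0.31 and -0.23 in the other 3.

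The first comparison asked how the high-fat diet without NOB compares with the regular diet. Members were lower in HF than in RD almost without exception, at both times, and by a small and even amount. At ZT18, 83 of 84 members were lower in HF, where 51.2% of all genes were lower, and the median log2 fold was -0.29, a level 17.97% lower. At ZT6, 82 of 84 were lower, where 50.7% of all genes were lower, with a median of -0.25, or 16.15% lower. At both times, 82 members were lower in HF, against 31.9% of all genes. No member differed by more than 1.5-fold downwards, a fold that 11.9% of all genes passed at ZT18 and 11.6% at ZT6. The folds were close to each other: the middle 50% of members spanned 0.106 log2 units at ZT18 and 0.0901 at ZT6. Other protein-coding genes whose mean reached 50, which were not matched to the members in abundance, spanned 0.342 and 0.257. The 83 respiratory chain subunits spanned 0.176 and 0.124, and the 40 proteasome subunits 0.202 and 0.154.

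The spread was alike in both subunits. Small-subunit genes had a median log2 fold in HF against RD of -0.28 at ZT18 and -0.27 at ZT6, and large-subunit genes of -0.31 and -0.25. Both RD libraries lay above both HF libraries for 80 of 84 members, a pattern that 22.8% of all genes had. With HF.NOB at ZT18 added to the low libraries, the count was also 80, against 15.5% of all genes. The exceptions to both were Rpl3, Rpl3l, Rpl7l1 and Rps19bp1, so that only 1 core member, Rpl3, was among them.

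Rps20, a small-subunit protein at the head of the 40S particle (chr4:3831334-3835665, minus strand, 4 exons), had the largest negative fold at both times. It had 4780 normalised counts in HF and 7110 in RD at ZT18, and 5224 in HF and 7320 in RD at ZT6. Its log2 fold was -0.57 at ZT18, with a 95% interval of -0.63 to -0.52, and -0.49 at ZT6 (-0.54 to -0.43). These intervals, like all others here, cover the counting of reads only and not the difference between animals. Both HF libraries lay well below both RD libraries.

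Rps27, a zinc-finger protein of the small subunit (chr3:90212522-90213651, minus strand, 5 exons), came near it. It had 2708 normalised counts in HF and 3731 in RD at ZT18, and 2845 in HF and 3786 in RD at ZT6, with log2 folds of -0.46 (-0.54 to -0.39) and -0.41 (-0.49 to -0.34). Its near copy Rps27rt, a gene of 1 exon, had a log2 fold of -0.40 (-0.81 to -0.00) at ZT6. Since 79.4% of all 50-base words of Rps27rt also occur in Rps27, the reads of this pair cannot be told apart. Rpl24, which forms a bridge between the subunits (chr16:55966275-55971435, plus strand, 6 exons), had 1042 in HF and 1463 in RD at ZT18, and 1132 in HF and 1445 in RD at ZT6. Its log2 folds were -0.49 and -0.35, again with no overlap between HF and RD.

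Members with known roles beyond the core of the particle were in the same band. Rps6, which is phosphorylated by the S6 kinases downstream of mTORC1, had 3600 normalised counts in HF and 4507 in RD at ZT18, and 3802 in HF and 4507 in RD at ZT6. Rpl5, which with Rpl11 and 5S rRNA binds Mdm2 when ribosome assembly is disturbed, had log2 folds of -0.28 and -0.30, while those of its partner Rpl11 were -0.14 and -0.16. Rpsa, also known as the laminin receptor, had -0.25 and -0.23. The stalk proteins Rplp0, Rplp1 and Rplp2 had -0.17, -0.27 and -0.30 at ZT18 and -0.12, -0.25 and -0.19 at ZT6. All these folds were negative at both times and lay between -0.32 and -0.12.

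At the other end stood members whose HF values at ZT6 were nearly equal to those in RD or above them, though not always at ZT18. Rpl3l (chr17:24727820-24736143, plus strand, 10 exons) had 11586 normalised counts in HF and 11707 in RD at ZT18, and 12206 in HF and 12241 in RD at ZT6. Its log2 folds of -0.02 (-0.05 to 0.02) and -0.00 (-0.04 to 0.04) lie, as far as counting goes, apart from the member medians of -0.29 and -0.25. Rpl7l1, known in human cells as an assembly factor related to Rpl7 (chr17:46773907-46782672, minus strand, 7 exons), had 894 in HF and 839 in RD at ZT18, and 807 in HF and 746 in RD at ZT6, the only member higher in HF at both times. Rps19bp1 had 152 in HF and 182 in RD at ZT18 and 157 in HF and 152 in RD at ZT6. Its intervals are wide and span 0, and its ZT18 values do not set it apart from the other members. The core member Rps2, which lies at the mRNA entry channel (chr17:24718116-24721929, plus strand, 5 exons), had 8212 in HF and 8908 in RD at ZT18 but 8688 in HF and 8778 in RD at ZT6. Rps2 and Rpl3l are neighbours on the plus strand, with 5890 bases between them, an arrangement looked up after their values were seen.

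**Figure D2:**
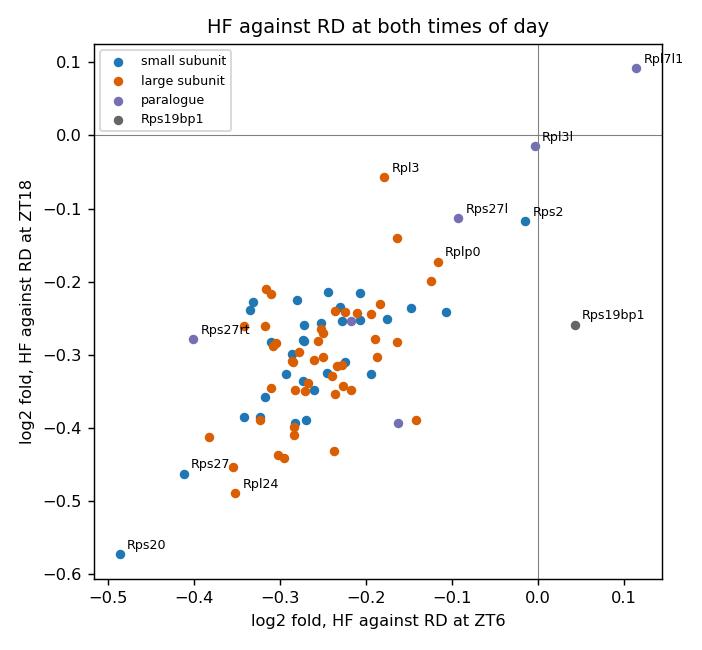
Each point is 1 of 84 members, with its log2 fold in HF against RD at ZT6 on the horizontal axis and at ZT18 on the vertical axis. All but 2 members are below 0 at both times, from Rps20 at -0.49 and -0.57 to Rpl3l at about 0, while Rpl7l1 is above 0 at both.

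Counting error alone gave a 95% interval below 0 for 78 of 84 members at ZT18 and for 79 at ZT6. The members are abundant, and the median half-width of these intervals was 0.0694 and 0.0693 log2 units. Such counts of intervals, here and below, were made for members only, so no share over all genes stands beside them. A fit across all genes was possible only by treating the 2 times as replicates of a diet. With edgeR's quasi-likelihood test on the recovered reads of all 6 libraries, with diet and time as additive terms and Benjamini-Hochberg adjustment, 0 of 84 members and 0% of genes were called for HF against RD. At an unadjusted p under 0.05 the counts were 0 members and 619 genes, and DESeq2 called 0 members and 24 genes. This fit has 2 residual degrees of freedom, and its spread includes the deviating HF.NOB library at ZT6. Without that library, a choice made after seeing the data, 65 of 84 members were called lower in HF and 0 higher, while 5.44% of all genes were called lower. That fit has 1 residual degree of freedom and rests on 2 HF and 2 RD libraries. With HF.NOB at ZT6 kept and HF at ZT18 left out instead, 0 members were called and 0 had an unadjusted p under 0.05.

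In that smaller fit, edgeR gave adjusted p = 1.62e-07 for Rps20, 4.64e-06 for Rps27 and 5.55e-05 for Rpl24, with log2 folds of -0.52, -0.43 and -0.41. Rps28, a short protein of the small subunit, had an adjusted p of 0.00149, Rpl5 of 0.00859, Rps6 of 0.00878, Rplp2 of 0.0316 and Rplp1 of 0.0331 in the edgeR fit. The 19 members not called included Rpsa with adjusted p = 0.0596, Rpl11 with 0.249, Rplp0 with 0.388, Rpl3 with 0.444 and Rps2 with 0.756, as well as Rps27l with 0.541, Rpl7l1 with 0.509, Rps19bp1 with 0.784 and Rpl3l with 0.994. The fit used the same HF and RD libraries that gave the folds above, so its results for Rps20, Rpl24 and Rps27 are no separate support for those folds. In a further fit with an offset for transcript length, 0 members were called and 36 had an unadjusted p under 0.05. Among all 14988 genes of that fit, 1 was called and 1329 had an unadjusted p under 0.05.

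Some other transcripts moved with the members in these libraries, and others moved the opposite way. All 7 markers of blood and neutrophils (haemoglobin genes, Alas2, S100a8 and S100a9) were lower in HF than in RD at both times, with median log2 folds of -1.12 and -1.79. Their values summed to 1722, 2110 and 4522 normalised counts in HF.NOB, HF and RD at ZT18, and to 14947, 1595 and 5518 at ZT6, and none was at 0. As for the members, HF.NOB at ZT6 was highest and both RD libraries lay above the other 3. Adipocyte markers were higher in HF for 11 of 12 genes at both times, with medians of 0.85 at ZT18 and 0.43 at ZT6 and sums of 116882 in HF and 99348 in RD at ZT18, and 116816 in HF and 111468 in RD at ZT6. Fibroblast and matrix markers were higher in HF for 11 of 12 genes at ZT18 and 10 of 12 at ZT6, with medians of 0.68 and 0.51 and sums of 30921 in HF and 23450 in RD at ZT18, and 32037 in HF and 25473 in RD at ZT6. Macrophage and leukocyte markers were higher in HF for 11 of 17 genes at ZT18 and 15 of 17 at ZT6, with medians of 0.21 and 0.34 and sums of 6995 in HF and 6471 in RD at ZT18, and 6786 in HF and 5414 in RD at ZT6. Their part in the lower member values was not tested.

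The second comparison asked what NOB added to the high-fat diet. At ZT18 the members hardly differed between HF.NOB and HF: the median log2 fold was 0.06, 67 of 84 were higher in HF.NOB, where 49.9% of all genes were higher, and no member passed 1.5-fold. At ZT6 all 84 members were higher in HF.NOB, where 50.6% of all genes were higher. The median log2 fold of the members was 1.01. There 82 members passed 1.5-fold upwards, as 20.9% of all genes did. Over both times together, 67 members had higher values with NOB than without it on the high-fat diet, against 24.9% of all genes.

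Against RD, HF.NOB at ZT18 remained low. All 84 members were lower in HF.NOB than in RD there, where 48.4% of all genes were lower, with a median log2 fold of -0.25 and none past 1.5-fold downwards, which 11% of all genes were. At ZT6 all 84 were higher in HF.NOB than in RD, where 48.6% of all genes were higher, with a median of 0.74. Of these, 75 passed 1.5-fold, as 21.8% of all genes did. The comparisons of HF.NOB and of RD with HF share the HF libraries, so their folds are not independent of each other.

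The higher values at ZT6 in HF.NOB ran with transcript length in that library. For each member, the median fold of the 100 protein-coding genes nearest in transcript length, among those whose mean reached 50, was therefore subtracted. Over the members these neighbours had a median log2 fold of 0.78 in HF.NOB against HF at ZT6. What remained was a median of 0.26, with 80 of 84 members above 0 and 8 past 1.5-fold. At ZT18 the same subtraction left the median at 0.07, and for HF against RD it left -0.30 at ZT18 and -0.24 at ZT6. For HF.NOB against RD at ZT6 it left 0.04, with 52 of 84 members above 0. The size of the difference of HF.NOB from HF at ZT6 thus depends on the length correction, whereas the medians of HF against RD lay between -0.30 and -0.24 with and without it.

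**Figure D3:**
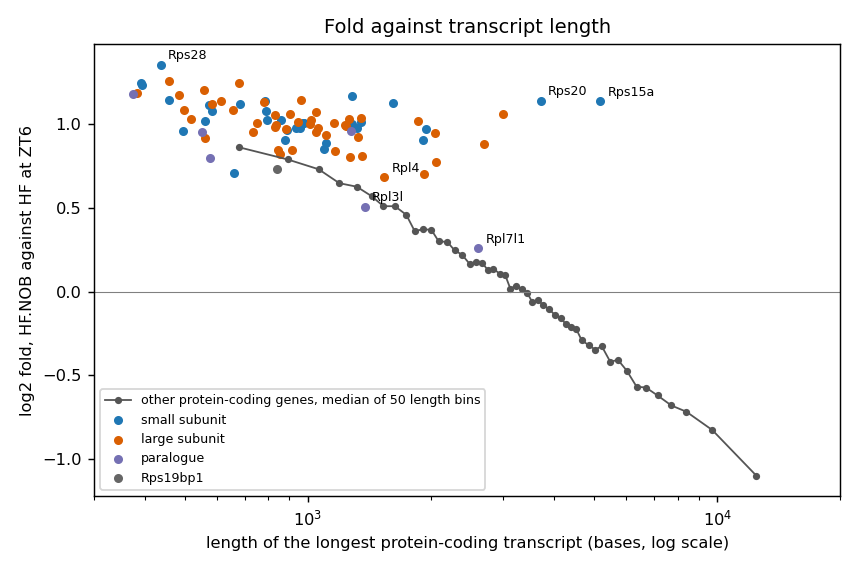
The horizontal axis gives the length of the longest protein-coding transcript on a log scale and the vertical axis the log2 fold in HF.NOB against HF at ZT6, with members as coloured points and the medians of 50 length bins of other protein-coding genes as the grey line. Most members lie above the line, Rpl3l and Rpl7l1 lie close to it, and Rps20 and Rps15a lie far above it at their long annotated lengths.

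Rps28 (chr17:33819027-33824562, minus strand, 4 exons) had the highest fold at ZT6 of HF.NOB against HF. Its values were 4444 normalised counts in HF.NOB, 1736 in HF and 2094 in RD at ZT6, and 1727, 1749 and 2291 in the same order at ZT18. The log2 fold was 1.36 (1.27 to 1.44) at ZT6 and -0.02 (-0.12 to 0.08) at ZT18, so the single library of HF.NOB at ZT6 stood above 5 libraries that lay within a narrow range. With its length neighbours subtracted, 0.44 remained. Rpl38, a large-subunit protein that in mouse is needed for axial patterning, and Rpl24 followed with 1.25 each.

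The lowest folds at ZT6 were those of Rpl7l1 (0.26, interval 0.12 to 0.40), Rpl3l (0.51, 0.47 to 0.54) and Rpl4 (0.68, 0.65 to 0.71). Rpl3l had 17345 normalised counts in HF.NOB and 12206 in HF at ZT6. After subtraction of the length neighbours it stood at -0.10, beside Rps27l at -0.11, whereas Rps20 stood at 1.21, Rps15a at 1.43 and Rpl18 at 1.01. These 3 have annotated transcripts of 3706, 5179 and 2989 bases, and for Rps15a and Rpl18 the principal transcripts have 640 and 679 bases. The remaining values of Rps15a and Rpl18 therefore rest on which transcript is counted as theirs. For Rps20 the principal transcript is also its longest, so its remaining value rests on that annotated length too. Which transcripts the reads came from was not tested.

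At ZT18, HF.NOB and HF differed beyond counting error for 37 members with intervals above 0 and for 1, Rpl3, below 0. Rps20 had 5576 normalised counts in HF.NOB and 4780 in HF, and Rpl10, which joins the subunit late in assembly, had 6453 in HF.NOB and 5549 in HF, both with a log2 fold of 0.22. Rpl36al had 0.21. Rps20 and Rpl10 were still below RD, where Rps20 had 7110 and Rpl10 had 7599. For Rpl36al the values were 1731 in HF.NOB and 1782 in RD, and the interval of that log2 fold spans 0 (-0.14 to 0.06). In the other direction, Rpl3 had 1579 in HF.NOB and 2018 in HF, a log2 fold of -0.35 (-0.45 to -0.26), the lowest of all members. Rps19bp1 (-0.16) and Rpl7l1 (-0.14) came next, and both intervals reach 0.

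With the times as replicates, the edgeR fit over 6 libraries called 0 of 84 members and 0% of genes for HF.NOB against HF. At an unadjusted p under 0.05 the counts were 2 members and 348 genes, and DESeq2 called 0 members and 0 genes. At ZT6 the blood and neutrophil markers had higher values in HF.NOB for 7 of 7 genes, with a median log2 fold of 3.33. All 12 adipocyte markers were also higher, with sums of 160365 in HF.NOB and 116816 in HF. Their part in the higher member values at ZT6 was not tested.

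**Figure D4:**
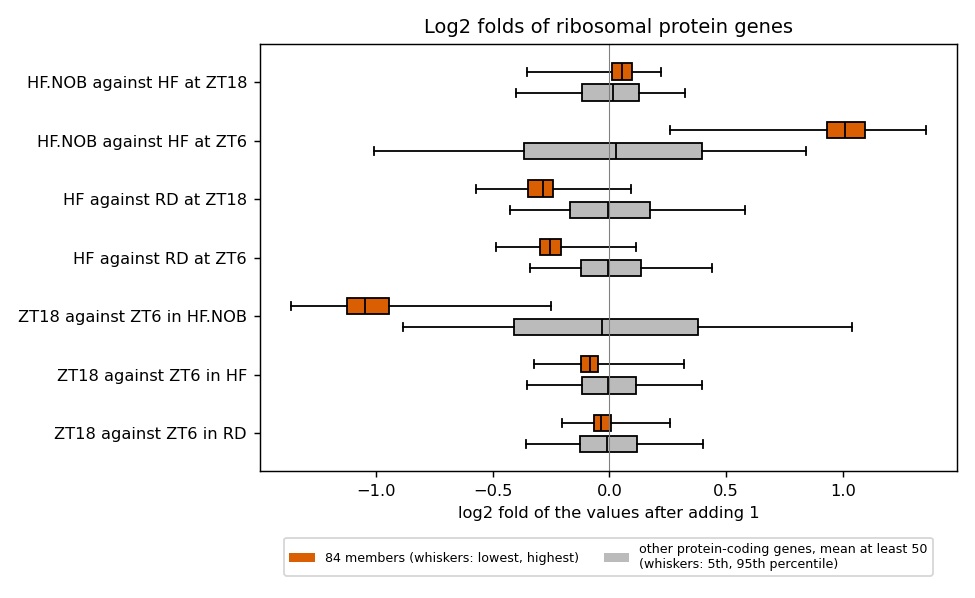
Boxes give the quartiles and the median of the log2 folds in 7 comparisons, for the 84 members with whiskers to the lowest and highest, and for other protein-coding genes whose mean reached 50, with whiskers to the 5th and 95th percentiles. Member medians are -0.29 and -0.25 in HF against RD and 1.01 in HF.NOB against HF at ZT6. The member boxes are narrower than the others in every comparison, but the other genes were not matched in abundance. In ZT18 against ZT6 in HF the member box spans 0.0700 log2 units, near the 0.0752 of proteasome and 0.0820 of respiratory chain subunits, which are not drawn.

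The third comparison set ZT18 against ZT6 within each diet. In HF, 76 of 84 members were lower at ZT18, where 49.4% of all genes were lower, with a median log2 fold of -0.08. In RD, 61 of 84 were lower, where 51.6% of all genes were lower, with a median of -0.04. Subtraction of the length neighbours turned this direction in RD, to a median of 0.03 with 58 of 84 members above 0, and left -0.08 in HF. No member passed 1.5-fold in either diet, and counting intervals lay below 0 for 53 members in HF and for 22 in RD. In HF.NOB all 84 were lower at ZT18, where 50.4% of all genes were lower, with a median of -1.05. There 83 passed 1.5-fold downwards, as 21.4% of all genes did, and subtraction of the length neighbours left -0.28.

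Rpl3 ran against most members in HF and RD, but in HF.NOB its log2 fold of -1.07 lay near the member median of -1.05. Rpl3 had 2018 normalised counts at ZT18 and 1616 at ZT6 in HF, and 2100 at ZT18 and 1830 at ZT6 in RD. This gives log2 folds of 0.32 (0.22 to 0.42) and 0.20 (0.10 to 0.30). It had the highest fold of all members in HF, followed by Rps27rt (0.19) and Rpl7l1 (0.15), while in RD it stood with Rps19bp1 (0.26) and Rpl7l1 (0.17). The lowest were Rpl22l1 (-0.32), Rpl36al (-0.22) and Rpl28 (-0.19) in HF, and Rpl35a (-0.21), Rpl36al (-0.19) and Rpl34 (-0.16) in RD. In HF.NOB the lowest were Rps28 (-1.36), Rpl37a and Rps29 (-1.30 each), and the highest were Rpl4 (-0.67), Rpl3l (-0.60) and Rpl7l1 (-0.25).

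For ZT18 against ZT6, edgeR over 6 libraries called 0 of 84 members, while 0.00667% of genes (1 gene) were called. At an unadjusted p under 0.05 the counts were 0 members and 528 genes, and DESeq2 called 0 members and 26 genes. Without HF.NOB at ZT6, a choice made after seeing the data, edgeR called 4.45% of genes in a fit with 1 residual degree of freedom. Of the 84 members, 1 was called, Rpl3, with an edgeR log2 fold of 0.27 and adjusted p = 0.0236. It was higher at ZT18 in both diets of that fit.

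The paralogues were read against the proteins they resemble. Rpl3l and Rpl3 share no run longer than 22 bases, so that reads of 50 bases can be assigned to either. Rpl3l made up 87.9, 85.2 and 84.8% of the reads of the pair in HF.NOB, HF and RD at ZT18, and 83.9, 88.3 and 87.0% at ZT6. In counts this is 7.26, 5.74 and 5.57 Rpl3l per Rpl3 at ZT18, and 5.22, 7.55 and 6.69 at ZT6. The share moved with Rpl3, since Rpl3l itself lay between 11460 and 12241 normalised counts in all libraries but HF.NOB at ZT6. Its lowest share was in the library with the highest Rpl3 value, 3319 normalised counts.

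Rps27l, a p53-induced relative of Rps27, made up 31.8, 32.4 and 27.4% of the reads of the pair in HF.NOB, HF and RD at ZT18, and 27.5, 32.4 and 27.8% at ZT6. The exact binomial intervals of the HF shares, 30.9 to 34.0% and 31.0 to 33.9%, do not overlap those of RD, 26.1 to 28.7% and 26.4 to 29.2%, at either time. In values, Rps27l had 1298 in HF and 1404 in RD at ZT18 and 1365 in HF and 1456 in RD at ZT6, a smaller distance than that of Rps27. Rpl36al, a single-exon relative of Rpl36a, made up 57.9, 55.2 and 53.7% of its pair in HF.NOB, HF and RD at ZT18 and 53.2, 56.9 and 55.3% at ZT6, with HF above RD at both times but overlapping intervals. Rpl22l1 made up 20.3 to 22.7% of its pair with Rpl22 in 5 libraries, and a share with an interval of 23.8 to 26.2% in HF.NOB at ZT6. Rpl7l1 made up 11.8, 13.5 and 11.0% with Rpl7 at ZT18 and 8.10, 11.7 and 9.37% at ZT6 in HF.NOB, HF and RD, with HF above RD at both times. Shares were not corrected for transcript length, which folds followed in HF.NOB at ZT6. Paralogue and parent have 575 and 458 bases for Rps27l, 1276 and 483 for Rpl36al, 552 and 2051 for Rpl22l1, and 2606 and 1163 for Rpl7l1. The part of length in the shares was not tested.

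**Figure D5:**
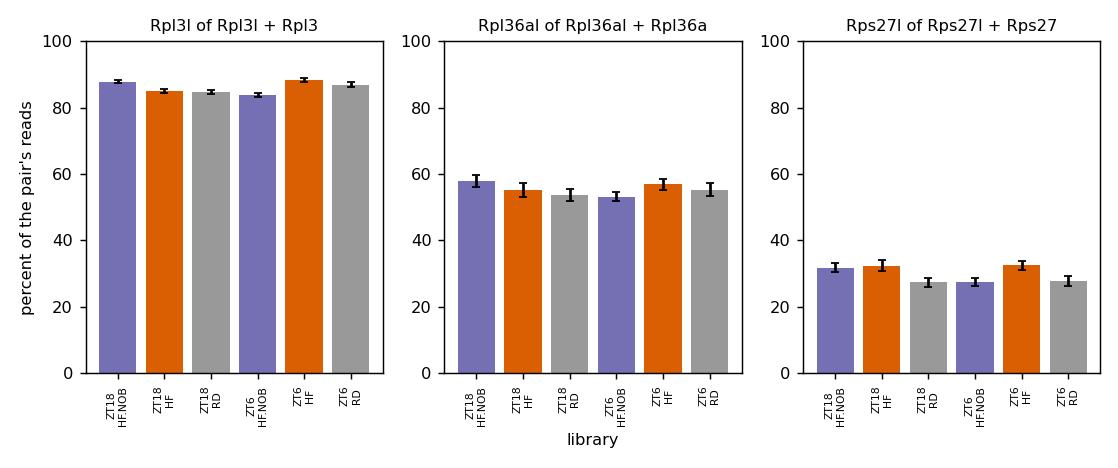
Bars give the percent of the reads of a pair that belong to the paralogue (Rpl3l, Rpl36al or Rps27l) in each library, with exact 95% binomial intervals for counting error. For Rps27l both HF bars (32.4%) stand above both RD bars (27.4 and 27.8%), and for Rpl3l the shares lie between 83.9 and 88.3%.

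Other genes of translation gave a measure of how far the pattern reached. The other TOP mRNAs, 19 genes of elongation and initiation factors and RNA-binding proteins, had median log2 folds in HF against RD of -0.29 at ZT18 and -0.25 at ZT6, with 1 and 2 of 19 higher in HF. Their folds were less even than those of the members, with the middle 50% spanning 0.274 log2 units at ZT18 and 0.156 at ZT6. Among them Eef2, which moves the ribosome along the mRNA, had 49088 normalised counts in HF and 64484 in RD at ZT18, and 52436 in HF and 64071 in RD at ZT6. Eif4b, a partner of the helicase Eif4a, had -0.54 at ZT18, and Naca, which binds the emerging chain, had -0.50 at ZT6. In HF.NOB against HF at ZT6 their median was 0.63, with 17 of 19 higher, and 0.14 after subtraction of the length neighbours. Naca had -0.52 there before subtraction.

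Fau, which encodes a ribosomal protein fused to a ubiquitin-like domain and falls outside the name rule, had a log2 fold of 1.08 in HF.NOB against HF at ZT6. In HF against RD it had -0.33 at ZT18 and -0.26 at ZT6. Factors of ribosome biogenesis (25 genes) had medians in HF against RD of -0.13 with 3 higher at ZT18, and of -0.08 with 7 higher at ZT6. RNA polymerase I and its factors (12 genes), which make the rRNA precursor, had -0.15 with 2 higher and -0.04 with 5 higher. These medians are nearer to 0 than those of the members, and the difference between the lists was not tested.

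Genes of mTORC1 and of the control of TOP mRNAs (18 genes) had medians in HF against RD of -0.18 at ZT18 and -0.08 at ZT6, with 3 and 4 higher. Eif4ebp1, a repressor of cap-dependent translation, had 970, 870 and 2321 normalised counts in HF.NOB, HF and RD at ZT18, and 2195, 857 and 1126 at ZT6. Its log2 fold was -1.41 in HF against RD at ZT18 and 1.36 in HF.NOB against HF at ZT6. Eif4ebp2, of the same family, had -2.01 in HF.NOB against HF at ZT6, and Ddit4, an inhibitor of mTORC1, had -1.02 in HF against RD at ZT18.

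The mitochondrial ribosomal proteins, 78 genes of the separate ribosome inside mitochondria, had median log2 folds in HF against RD of 0.08 at ZT18 and 0.01 at ZT6, with 56 and 41 of 78 higher. Respiratory chain subunits (83 genes) had 0.22 with 76 higher at ZT18 and 0.03 with 55 higher at ZT6. Proteasome subunits (40 genes) had -0.06 with 15 higher and -0.11 with 8 higher. In HF.NOB against HF at ZT6 the medians of these 3 lists were 0.65, 0.84 and 0.71, and after subtraction of the length neighbours 0.07, 0.07 and 0.18, against 0.26 for the members. Medians of HF against RD between -0.29 and -0.25 thus stood in the cytosolic members and the other TOP mRNAs, and the median of the mitochondrial ribosomal proteins lay above 0 at both times, although the lists were not tested against each other.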

How the data were processed

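RNA-seq of calf muscle was analysed in 6 libraries, 1 per diet and time. Per the methods of the study and the submitters' processing notes, the authors used TopHat2 2.0.12 for alignment (mm10) and Cufflinks 2.2.1 for abundance. The deposited values are a normalised signal: 100% of them were whole multiples, within 0.001, of the value of 1 read (0.956 to 1.33), so read counts could be recovered. The tool for counting and for scaling is not given in the sources used here. In addition, the sheet's name speaks of mean results, the study gives n = 3 independent samples for a heat map of the RNA-seq, and whether a column holds 1 of these, a pool or their added reads is not stated. The plan had allowed for raw counts, abundances or scaled counts, and no further scaling was applied. Columns of other samples numbered 0.

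Identifiers were joined without version to GENCODE M21 (99.4% matched). Folds used a pseudocount of 1 and a minimum mean of 1. Length-matched folds subtract the median of the 100 nearest genes in length of the longest protein-coding transcript. On the recovered reads, edgeR called 0, 0 and 1 genes of 14988 for HF.NOB against HF, HF against RD and ZT18 against ZT6, with diet and time as additive terms. Named were the 3 highest and 3 lowest members of each of 7 comparisons, paralogues with their parents, Rplp0, Rplp1, Rplp2, Rpsa, Rps6, Rpl5, Rpl11 and Rps28, the 3 most and 3 least abundant per kilobase, the 4 members farthest from the median of the members, and up to 4 genes of each other list. Rps2, Rps15a and Rpl18 were named after their values were seen. Members and lists were chosen with earlier results of these data known. The steps were tested on simulated data. Intervals are at 95%, from the Poisson error of both read counts on the log scale for folds and exact binomial (Clopper-Pearson) for shares, and cover counting error only. The fits ran in R 4.3.3 with edgeR 4.0.16 and DESeq2 1.42.0, all else in Python 3.11.15 (pandas 2.3.3, SciPy 1.17.1, Matplotlib 3.10.9, NumPy 2.4.6). Alternatives were other scalings, pseudocounts, filters, fold thresholds and length corrections, and fits without a library.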

Additional observations from a re-analysis of the deposited data

Results flagged for a closer look

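Rpl3 had a log2 fold of -0.35 in HF.NOB against HF at ZT18 and of 1.04 at ZT6, with opposite directions at the 2 times and counting intervals that exclude 0 at both. In all, 17 of 84 members had a higher value in HF.NOB than in HF at one time and a lower one at the other, against 49.8% of all genes. With 1 library per condition the difference between the times was not tested.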

How the results depend on the processing

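Of 112 alternative values of the member medians, 105 kept their sign. The exceptions were all for ZT18 against ZT6 in RD (median -0.04), which became 0.0050 when scaled to a total that leaves out genes of the mitochondrial genome and the 20 of highest abundance. Under length correction it became 0.0317 (100 nearest genes), 0.0258 (50 length bins), 0.0301 (length with GC content), 0.0238 (both without mitochondrial ribosomal, respiratory and proteasome genes and with the longest transcript of any kind) and 0.0376 (principal transcript, chosen after seeing the data, as were the fits without a library). The cause was not tested. For HF against RD the total-based scaling gave -0.25 at ZT18 and -0.20 at ZT6, where TMM gave -0.24 and the length corrections that moved it -0.22, -0.23, -0.23, -0.22 and -0.21. For HF.NOB against HF, that scaling gave 0.0026 at ZT18, with 44 of 84 members higher, and principal transcripts gave 0.0771. At ZT6 the median was 0.97 with median-ratio factors, 0.93 with TMM and 0.94 with the total, 0.26, 0.27, 0.26, 0.28, 0.30 and 0.24 with the 6 length corrections, and 45 members passed 2-fold, against 82 at 1.5-fold. For ZT18 against ZT6, HF.NOB gave -1.01, -0.98 and -1.01 with those scalings and -0.28, -0.30, -0.27, -0.31, -0.30 and -0.27 with the length corrections, and HF gave -0.0593 with the total.

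Of 1323 values for 12 named members, 1257 kept their sign. Length correction reversed Rpl3l in HF.NOB against HF at ZT6 (-0.10, -0.0948, -0.12, -0.0497, -0.11 and -0.0052) and in ZT18 against ZT6 in HF.NOB (0.0376, 0.0299, 0.0453 and 0.0676). It reversed Rps27l in the same comparisons (-0.11, -0.0789, -0.0614, -0.0060, -0.0899 and -0.10, and 0.14, 0.10, 0.0774, 0.0009, 0.11 and 0.10), and principal transcripts reversed Rpl7l1 (-0.30 and 0.27). In edgeR, leaving out HF.NOB at ZT6 gave 65 called members for HF against RD and 1 for ZT18 against ZT6, in place of 0, and leaving out HF at ZT18 gave 0, with 0 members at an unadjusted p under 0.05 for HF against RD. DESeq2 called 0 members. No paired analysis was possible because the labels give no replicate numbers and each condition has 1 library.

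Each comparison rests on single libraries, so the difference between animals was not measured. With 290952 to 509035 reads on members, the median half-width of a member's interval was 0.0606 to 0.0706 log2 units, more than the median fold for HF.NOB against HF at ZT18 and for ZT18 against ZT6 in RD. Whether the trend with length in HF.NOB at ZT6 came from the RNA or the tissue was not tested.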
